A study of Rattus norvegicus with 12 samples.

Results

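Interferon response genes were examined in adult rat ventricular myocytes (ARVMs) that overexpressed the nuclear receptor NR4A2. The genes were chosen by symbol and comprised the interferons and their receptors, the STAT and IRF transcription factors, the RNA sensors, and the antiviral effectors that interferon induces, which gave 67 genes (76 transcripts) of 17301 gene names (18752 transcripts) in the RNA sequencing data. The choice by symbol also placed Isg20l2 among the effectors, which shares its name but not its induction with Isg20. The ARVMs came from hearts of male Sprague-Dawley rats and were cultured without stimulation. One group of 6 samples received Ad-GFP, an adenovirus that encodes green fluorescent protein, and the other group of 6 received Ad-h-NR4A2, an adenovirus that encodes human NR4A2, each at 50 multiplicity of infection (MOI), and RNA was collected 48 h later. Both groups thus carried an adenovirus, and untransduced ARVMs were not analysed here, so that the response to the vector itself cannot be told apart from the basal level. Samples of both groups carry the numbers 24 to 29, and same-numbered samples are called pairs below. Levels are FPKM, the fragments per kilobase of a transcript, scaled to the mapped fragments of each sample by the authors, and the depth behind them, recovered from the steps between low FPKM values, was 18800000 to 28000000 fragments in Ad-GFP samples and 21500000 to 27300000 in Ad-h-NR4A2 samples.

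Interferons are secreted by cells that detect viral nucleic acid. Type I interferons bind IFNAR1 and IFNAR2, and interferon-γ binds IFNGR1 and IFNGR2, and the kinases JAK1, JAK2, and TYK2 on these receptors phosphorylate STAT proteins. A complex that holds STAT2 and IRF9 binds the interferon-stimulated response element (ISRE) of target genes, whereas STAT dimers bind the gamma-activated site (GAS). The targets include enzymes and GTPases that block viral replication, and also IRF7 and the sensors, which amplify the response, and USP18 and SOCS1, which dampen it. Cardiomyocytes divide little after birth, and interferon-induced genes are part of their defense against cardiotropic viruses.

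The labels were first checked by Nr4a2 itself. Rat Nr4a2 ranged from 0.626 to 1.40 FPKM (median 0.787) in Ad-GFP samples and from 445 to 592 FPKM (median 533) in Ad-h-NR4A2 samples, and the groups were thus far apart in all 6 pairs. The transgene is human and only the rat transcript was listed, so that reads of the transgene and of rat Nr4a2 were not told apart. Of the cardiomyocyte markers, Tnnt2 averaged 7189 FPKM in Ad-GFP and 5992 FPKM in Ad-h-NR4A2 samples.

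Of the 67 genes, 50 were above 0 in all 12 samples and were tested. Genes were called when the adjusted p from limma was below 0.05 and the group means differed at least 1.5-fold. By this rule 10 genes fell with Ad-h-NR4A2, namely Rsad2, Ifit3, Gbp5, Cmpk2, Usp18, Irf7, Rtp4, Gbp2, Irf1, and Irf4. These were 20% of the 50 genes, against 7.24% of all 10950 genes tested. Stat3 and Irf5 rose, which was 4% against 7.94% of all genes. When the sample number was entered as a replicate block, Oasl, Ifitm3, and Gbp4 were called lower as well, which gave 13 genes lower (26%, against 8.12% of all genes) and the same 2 genes higher (4%, against 8.55%). With no limit on the fold change, 16 genes were lower (32%, against 21.7% of all genes) and 5 were higher (10%, against 19.3%).

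The log2 fold change of FPKM + 0.1 (log2FC) had a median of -0.19 over the 50 genes and -0.02 over all genes tested. For the effector genes alone it was -0.30. Counted by pairs, 20 of the 50 genes (40%) were lower in all 6 pairs, compared with 29.1% of all genes, and 7 (14%) were higher in all 6, compared with 24.1%. The genes that fell were 7 effectors and 3 of 9 IRF factors, against 7.24% of all genes. The effectors were 2 of 2 for viperin and CMPK2, 2 of 3 guanylate-binding proteins, and 1 of 2 IFIT proteins. To these came 1 of 2 for ISG15 and its protease and 1 of 11 other effectors. None of 2 OAS, 2 Mx, and 3 IFITM genes tested was called without the block. No call fell on the 4 receptors or 3 RNA sensors tested, too few to tell from the shares of all genes (7.24% lower, 7.94% higher). The fold changes are shown by role in the plot of estimates with confidence intervals.

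**Figure D1:**
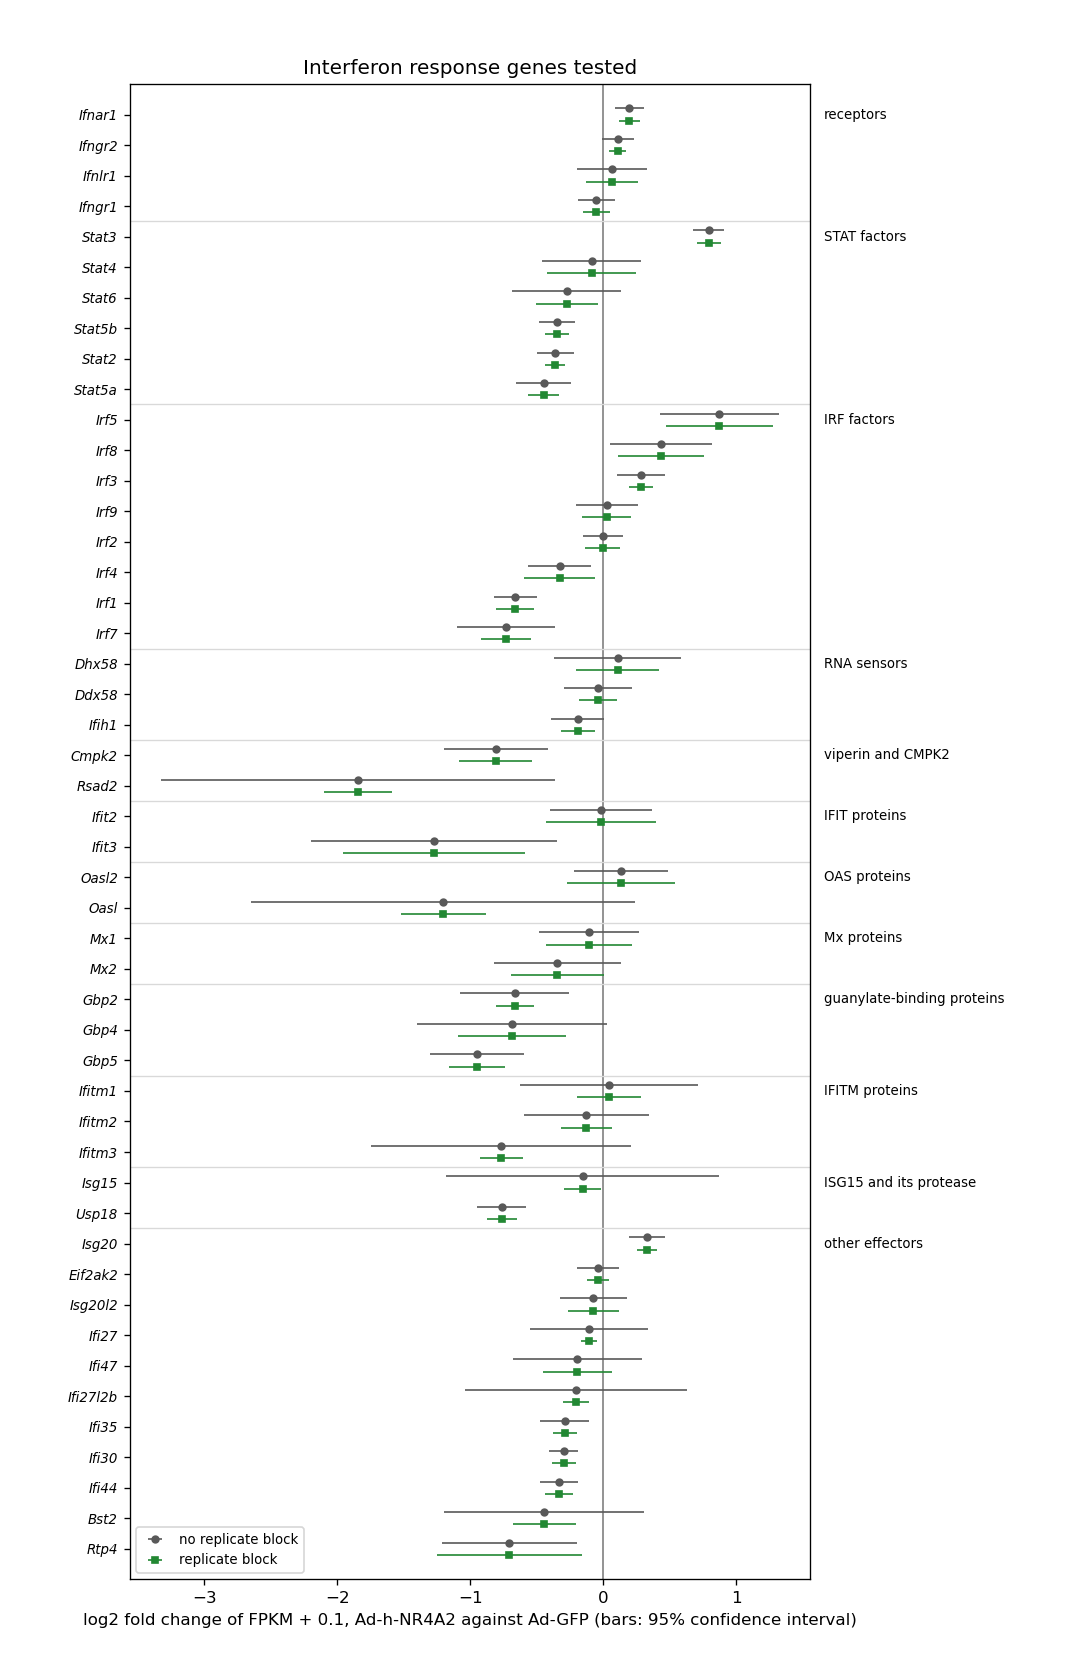
Log2 fold change of FPKM + 0.1 (x axis, Ad-h-NR4A2 against Ad-GFP, n = 6 per group) for 48 of the 50 interferon response genes tested, ordered by role; bars are 95% confidence intervals from limma without (circles) and with (squares) the replicate block. Rsad2, Ifit3, and Oasl lie farthest to the left (-1.85, -1.27, and -1.20), Irf5 and Stat3 farthest to the right (0.87 and 0.79), and the block shortens the intervals of Rsad2, Oasl, Ifitm3, Isg15, and Ifi27l2b most visibly.

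Interferon transcripts themselves were almost not detected. Ifnb1, Ifng, Ifna2, and Ifnk, which encode interferon-β, interferon-γ, an interferon-α, and interferon-κ, were listed at 0 in all 12 samples. Ifna1 was above 0 in 2 Ad-GFP samples, with 0.0948 FPKM in sample 27 and 0.0854 FPKM in sample 29, and in no Ad-h-NR4A2 sample. Ifna4 was above 0 in Ad-GFP sample 25 (0.132 FPKM) and in Ad-h-NR4A2 sample 24 (0.113 FPKM). No ligand could therefore be tested, and the level of interferon protein in the medium was not measured here.

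Receptor transcripts were present in every sample at similar levels in both groups. Ifngr2, which encodes the signal-transducing chain of the interferon-γ receptor, was the most abundant, with 28.9 to 34.5 FPKM (median 32.1) in Ad-GFP samples and 32.1 to 38.4 FPKM (median 33.7) in Ad-h-NR4A2 samples. These ranges overlapped, and the log2FC was 0.11 (SE 0.05, adjusted p = 0.128 from limma), although Ifngr2 was higher in 6 of 6 pairs and had an adjusted p of 0.00831 with the replicate block. Ifnar1, a chain of the type I receptor, was 14.1 ± 0.652 FPKM (SD, n = 6) with Ad-GFP and 16.1 ± 0.807 FPKM with Ad-h-NR4A2, so that its groups did not overlap while its means differed by less than 1.5-fold (log2FC 0.19, adjusted p = 0.00695 from limma). The confidence intervals of Ifngr1, the ligand-binding chain for interferon-γ, and Ifnlr1, a chain of the type III receptor, included 0 in limma.

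Among the STAT factors, Stat3 rose and its neighbors on the chromosome were lower. STAT3 carries the signal of interleukin-6 type cytokines and also responds to interferons. Stat3 ranged from 106 to 125 FPKM (median 114) in Ad-GFP samples and from 181 to 218 FPKM (median 200) in Ad-h-NR4A2 samples. The lowest Ad-h-NR4A2 sample was above the highest Ad-GFP sample, and the rise within pairs was 1.56- to 1.98-fold. The log2FC was 0.79 (SE 0.05, adjusted p = 1.29e-07 from limma). The two-sided exact permutation test gave p = 0.00216, the smallest that 6 against 6 samples allow when their numbers are ignored.

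Stat3 (Rn5 chr10:88584610-88638724), Stat5a (chr10:88558936-88583263), and Stat5b (chr10:88480377-88506888) lie in a row on chromosome 10. Stat5a, which transmits growth hormone and cytokine signals, went from 7.47 ± 0.889 to 5.44 ± 0.608 FPKM (log2FC -0.45, adjusted p = 0.00218 from limma). Stat5b went from 22.2 ± 1.37 to 17.4 ± 1.44 FPKM (log2FC -0.35, adjusted p = 0.000615 from limma). Both were lower in 6 of 6 pairs and both remained below the 1.5-fold limit, in the direction opposite to Stat3. 

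STAT2 is specific to type I and type III interferon signaling, and Stat2 ranged from 23.7 to 27.5 FPKM (median 26.1) with Ad-GFP and from 18.0 to 22.3 FPKM (median 20.5) with Ad-h-NR4A2. Its groups did not overlap (log2FC -0.36, adjusted p = 0.000579 from limma), and its means differed by less than 1.5-fold. Stat4 and Stat6 averaged at most 1.22 FPKM in either group and were not called.

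Of 9 IRF factors, 3 fell (33.3%, against 7.24% of all genes) and 1 rose (11.1%, against 7.94%). IRF1 is induced by interferon-γ and activates antiviral and antigen-presentation genes. Irf1 (Rn5 chr10:38891468-38898470) ranged from 15.7 to 18.7 FPKM (median 17.4) in Ad-GFP samples and from 9.77 to 12.4 FPKM (median 10.7) in Ad-h-NR4A2 samples. The groups did not overlap, and Irf1 was lower in 6 of 6 pairs, by a factor of 0.574 to 0.794 (log2FC -0.66, SE 0.08, adjusted p = 1.16e-05 from limma, p = 0.00216 by the exact permutation test).

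IRF7 is induced by type I interferon and drives interferon-α transcription. Irf7 (Rn5 chr1:221166926-221169993) ranged from 2.15 to 4.21 FPKM (median 3.44) with Ad-GFP and from 1.44 to 2.39 FPKM (median 1.98) with Ad-h-NR4A2. The ranges overlapped because the lowest Ad-GFP sample, 24, was below the highest Ad-h-NR4A2 samples, yet within pairs Irf7 was lower in 6 of 6 (log2FC -0.73, SE 0.17, adjusted p = 0.00379 from limma). Irf3, the constitutive factor downstream of the nucleic acid sensors and the most abundant of the family, had means of 21.8 ± 1.79 FPKM with Ad-GFP and 26.7 ± 3.25 FPKM with Ad-h-NR4A2, was higher in 6 of 6 pairs, and stayed below 1.5-fold (log2FC 0.28, adjusted p = 0.0160 from limma).

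Irf5 and Irf4, factors best known from immune cells, passed the call rule at very low levels. Irf5 went from 0.114 ± 0.0518 to 0.290 ± 0.0872 FPKM (log2FC 0.87, SE 0.21, adjusted p = 0.00435 from limma), which corresponded to 32 fragments over the 6 Ad-GFP samples and 80 over the 6 Ad-h-NR4A2 samples. Irf4 went from 0.0560 ± 0.0127 to 0.0241 ± 0.00872 FPKM (log2FC -0.33, SE 0.11, adjusted p = 0.0297 from limma), or from 37 to 16 fragments. These fragment numbers cover counting error only, and the added 0.1 FPKM compresses the fold change of genes at this level. Leaving out single samples or pairs ended the call of Irf4 in many cases, with adjusted p of up to 0.0904 in limma and a log2FC of -0.29 to -0.35 in those cases. Irf9, the partner of STAT2, averaged 5.22 FPKM with Ad-GFP and 5.27 FPKM with Ad-h-NR4A2, with a log2FC of 0.03 (SE 0.11). Irf2 and Irf8 were not called.

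**Figure D2:**
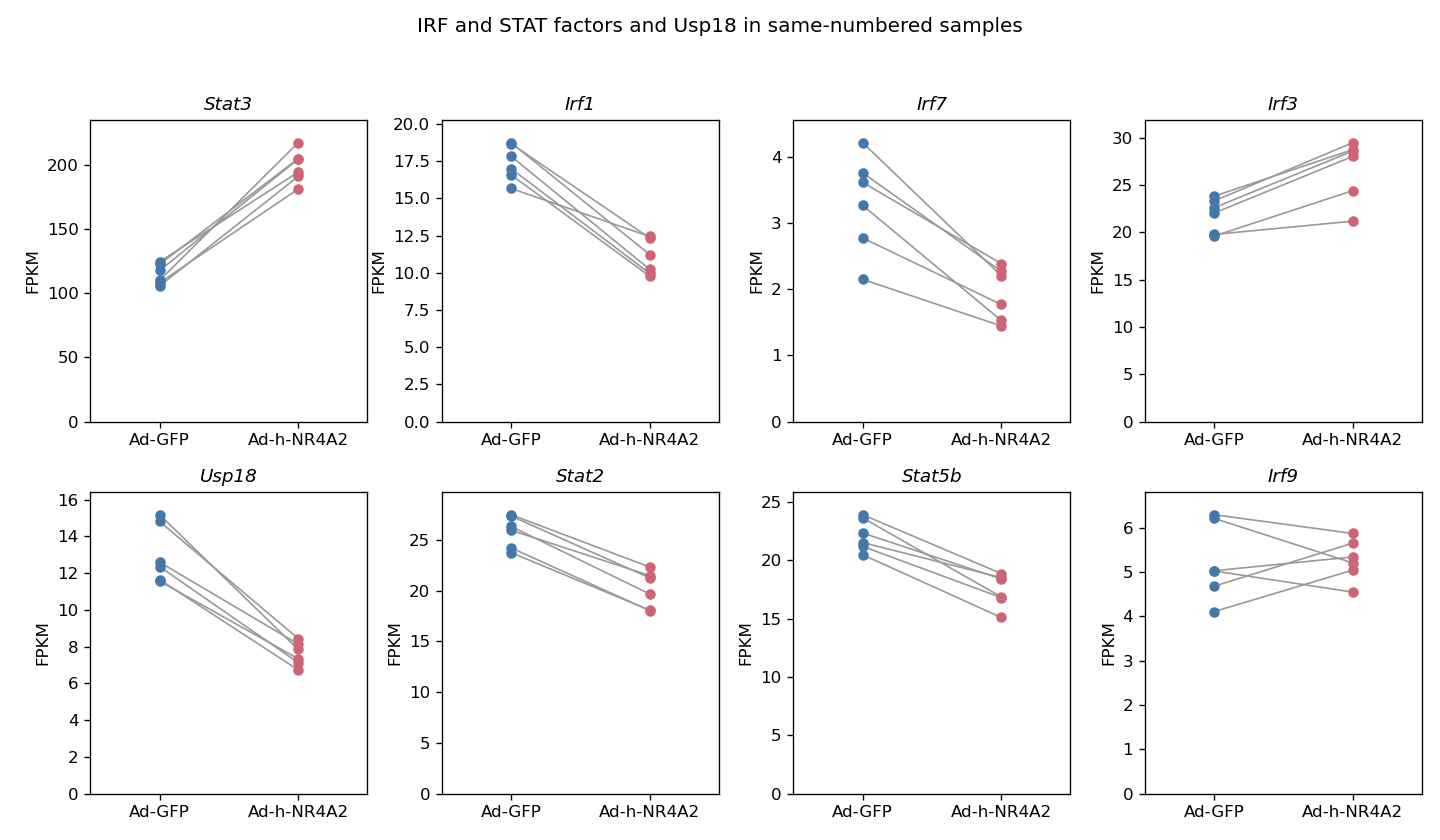
FPKM (y axis, linear and starting at 0) of 7 STAT and IRF genes and of Usp18 in each sample, with Ad-GFP samples on the left, Ad-h-NR4A2 samples on the right, and gray lines joining same-numbered samples. Stat3 and Irf3 go up and Irf1, Irf7, Usp18, Stat2, and Stat5b go down in all 6 pairs, whereas the lines of Irf9 cross.

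The RNA sensors were close in both groups. Ifih1, which encodes MDA5, was the most abundant and ranged from 4.22 to 5.13 FPKM (median 4.61) with Ad-GFP and from 3.44 to 4.88 FPKM (median 4.02) with Ad-h-NR4A2. It was lower in 6 of 6 pairs, but by little (log2FC -0.19, 95% confidence interval -0.39 to 0.01, adjusted p = 0.115 from limma, and 0.0173 with the replicate block). Ddx58, which encodes RIG-I, averaged 3.03 FPKM with Ad-GFP and 2.95 FPKM with Ad-h-NR4A2, and its 95% confidence interval of -0.30 to 0.21 in log2 includes changes of that size in either direction. Dhx58, which encodes LGP2, averaged 0.478 FPKM with Ad-GFP and 0.513 FPKM with Ad-h-NR4A2.

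Effector genes held the largest falls. Rsad2 encodes viperin, an interferon-induced enzyme that makes a chain-terminating nucleotide against viral polymerases. Rsad2 (Rn5 chr6:54375724-54388860) ranged from 1.74 to 17.9 FPKM (median 4.10) in Ad-GFP samples and from 0.534 to 5.09 FPKM (median 0.960) in Ad-h-NR4A2 samples. Samples 24 and 28 were the highest in both groups, at 17.9 and 15.6 FPKM with Ad-GFP and at 5.09 FPKM each with Ad-h-NR4A2, so that the groups overlapped. Within pairs, Rsad2 was lower in 6 of 6, at 0.180 to 0.326 times the Ad-GFP level. The log2FC was -1.85 with SE 0.69 and an adjusted p of 0.0462 from limma, and with the replicate block the SE was 0.11 and the adjusted p 1.27e-06. Without the block the adjusted p was close to 0.05, and it rose above 0.05 when any of 8 samples was left out (up to 0.100), while the log2FC stayed between -1.50 and -1.94.

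Cmpk2, a mitochondrial nucleotide kinase that lies next to Rsad2 (Rn5 chr6:54403782-54414584) and supplies the nucleotide that viperin uses, fell as well. It ranged from 0.409 to 0.925 FPKM (median 0.643) with Ad-GFP and from 0.214 to 0.482 FPKM (median 0.310) with Ad-h-NR4A2. Sample 28 was the highest in both groups, and only that Ad-h-NR4A2 sample reached the lowest Ad-GFP value (log2FC -0.81, SE 0.18, adjusted p = 0.00287 from limma).

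Ifit3, which belongs to the IFIT proteins that bind viral RNA and adaptor proteins, ranged from 0.423 to 3.87 FPKM (median 1.03) with Ad-GFP and from 0.354 to 0.771 FPKM (median 0.445) with Ad-h-NR4A2. As for Rsad2, samples 24 and 28 were the highest in both groups, and Ifit3 was lower in 5 of 6 pairs, the exception being pair 27 (1.22 times the Ad-GFP level). The log2FC was -1.27 (SE 0.43, adjusted p = 0.0295 from limma), and without Ad-GFP sample 28 it was -0.97 with an adjusted p of 0.0548. Its neighbor Ifit2 (0.675 FPKM with Ad-GFP and 0.664 FPKM with Ad-h-NR4A2) had a log2FC of -0.02, with a 95% confidence interval from -0.40 to 0.36. Ifit1 was listed at 0 in 3 samples and was not tested.

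Oasl belongs to the OAS family, whose enzymes sense viral RNA and activate RNase L, although OASL itself lacks this enzymatic activity. Oasl ranged from 0.695 to 6.63 FPKM (median 1.33) with Ad-GFP and from 0.176 to 2.75 FPKM (median 0.519) with Ad-h-NR4A2, and again samples 24 and 28 were the highest in both groups. Oasl was lower in 6 of 6 pairs, at 0.254 to 0.663 times the Ad-GFP level. The spread between samples of a group exceeded this difference without the block (log2FC -1.20, SE 0.67, adjusted p = 0.170 from limma), and pairing the samples by the replicate block lowered it to 7.85e-05. Of the other 11 OAS genes, 7 were listed at 0 in all samples, 3 in some samples, and Oasl2 averaged 0.0879 FPKM with Ad-GFP and 0.102 FPKM with Ad-h-NR4A2. The OAS, IFITM, and GBP genes have close copies that may share reads, and their values are less certain for that reason.

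**Figure D3:**
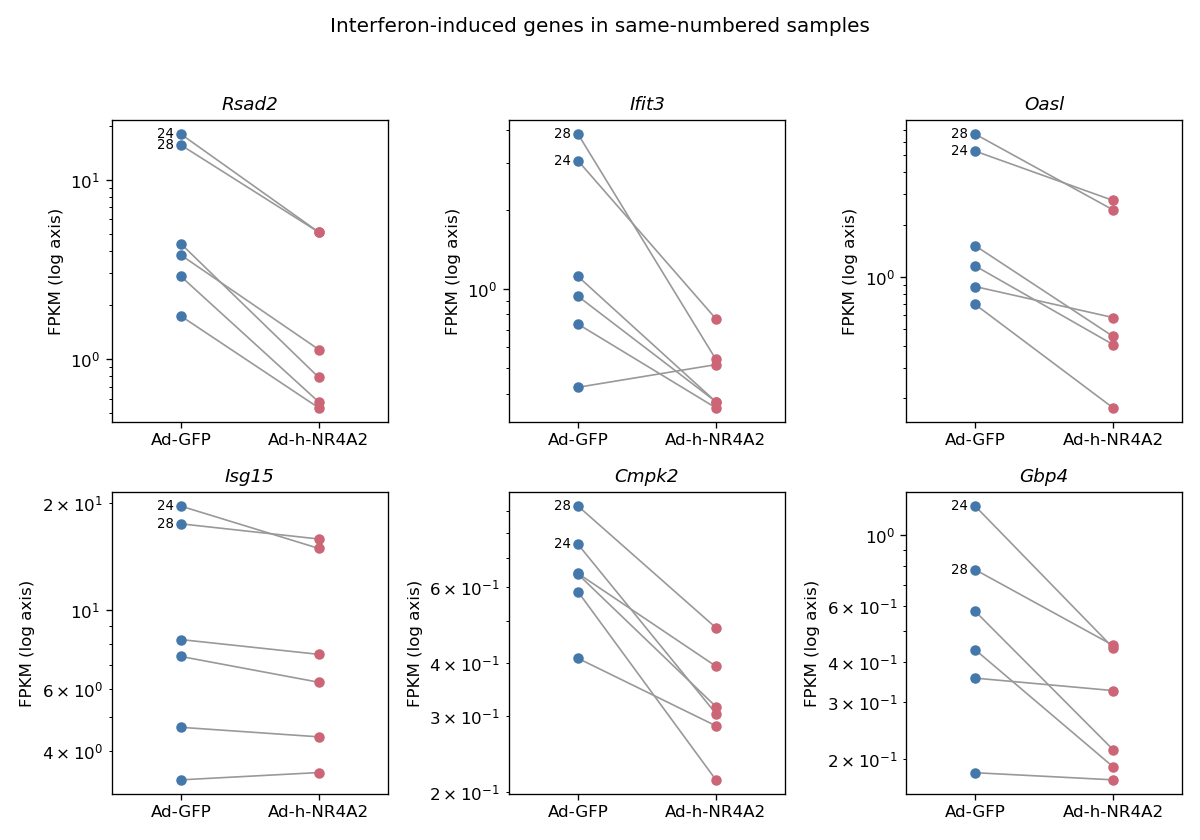
FPKM (y axis, log scale) of 6 interferon-induced genes in each sample, with Ad-GFP samples on the left, Ad-h-NR4A2 samples on the right, and gray lines joining same-numbered samples; Ad-GFP samples 24 and 28 are marked. Rsad2, Oasl, Cmpk2, and Gbp4 go down in all 6 pairs and Ifit3 in 5 of 6, and the Ad-GFP samples of Rsad2 spread 10.3-fold from lowest to highest, whereas Isg15 spreads widely between samples and shifts little within pairs.

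Guanylate-binding proteins are interferon-γ-induced GTPases that attack pathogens inside the cell. All 3 genes of the family that were measured were lower in 6 of 6 pairs, as were 29.1% of all genes. They lie together on chromosome 2 (Gbp5 at Rn5 chr2:266707528-266725952, Gbp4 at chr2:266777909-266791543, and Gbp2 at chr2:266805234-266821133). Gbp5 ranged from 1.23 to 2.20 FPKM (median 1.76) with Ad-GFP and from 0.618 to 1.16 FPKM (median 0.816) with Ad-h-NR4A2, without overlap (log2FC -0.95, SE 0.16, adjusted p = 0.000417 from limma). Gbp2, the most abundant, ranged from 3.21 to 6.84 FPKM (median 4.65) with Ad-GFP and from 2.03 to 4.02 FPKM (median 2.89) with Ad-h-NR4A2, and its groups overlapped although it was lower in 6 of 6 pairs. Its log2FC was -0.67 (SE 0.19, adjusted p = 0.0128 from limma), and without Ad-GFP sample 28 the means differed by less than 1.5-fold. Gbp4 averaged 0.594 FPKM with Ad-GFP and 0.300 FPKM with Ad-h-NR4A2, was lower in 6 of 6 pairs, and was called with the replicate block but not without it (log2FC -0.69, adjusted p = 0.114 from limma, and 0.00937 with the block). Without the block it was called when Ad-GFP sample 27 was left out (log2FC -0.91, adjusted p = 0.0247 from limma).

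ISG15 is a ubiquitin-like protein that is conjugated to other proteins after interferon treatment, and USP18 removes it and also blocks the type I receptor. Usp18 (Rn5 chr4:220895597-220922139) ranged from 11.6 to 15.2 FPKM (median 12.5) with Ad-GFP and from 6.73 to 8.43 FPKM (median 7.59) with Ad-h-NR4A2. The groups were clearly apart, with Usp18 at 0.517 to 0.646 times the Ad-GFP level in the pairs (log2FC -0.76, SE 0.08, adjusted p = 9.67e-06 from limma, p = 0.00216 by the exact permutation test). Isg15 ranged from 3.31 to 19.6 FPKM (median 7.82) with Ad-GFP and from 3.47 to 15.9 FPKM (median 6.87) with Ad-h-NR4A2, with samples 24 and 28 the highest in both groups. Within pairs it stayed between 0.760 and 1.05 times the Ad-GFP level (log2FC -0.16, adjusted p = 0.824 from limma, and 0.0519 with the replicate block). With the block, the 95% confidence interval of the log2FC was -0.29 to -0.02 for Isg15 and -2.10 to -1.59 for Rsad2, and neither the difference between these genes nor that between Isg15 and Usp18 was tested.

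IFITM proteins sit in membranes and block the entry of viruses. Ifitm3 ranged from 13.02 to 72.9 FPKM (median 25.95) with Ad-GFP and from 9.28 to 38.8 FPKM (median 14.1) with Ad-h-NR4A2. Here samples 24 and 28 were the lowest in both groups, opposite to Rsad2. Ifitm3 was lower in 6 of 6 pairs, at 0.483 to 0.713 times the Ad-GFP level, and was called only with the replicate block (log2FC -0.77, adjusted p = 0.197 from limma, and 1.75e-05 with the block). The relatives Ifitm1 and Ifitm2 had log2FC values of 0.04 and -0.13 and were not called.

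Of the other effectors, Rtp4, a receptor chaperone induced by interferon, was called, which was 1 of 11 genes (9.09%, against 7.24% of all genes). It went from 0.274 ± 0.0801 to 0.139 ± 0.0878 FPKM (log2FC -0.71, SE 0.24, adjusted p = 0.0288 from limma), which was 67 fragments in all Ad-GFP and 36 in all Ad-h-NR4A2 samples, and it was lower in 4 of 6 pairs. Without Ad-GFP sample 25, the highest, the adjusted p was 0.0653 from limma and the log2FC was -0.60. The call was also lost without Ad-h-NR4A2 sample 26 (log2FC -0.66, adjusted p = 0.059 from limma) or sample 27 (log2FC -0.68, adjusted p = 0.056 from limma). Ifi27 and Ifi27l2b, small membrane proteins of the same family, were the most abundant effectors. Ifi27 averaged 121 ± 31.9 FPKM with Ad-GFP and 111 ± 27.6 FPKM with Ad-h-NR4A2, and Ifi27l2b 111 ± 50.5 and 94.2 ± 39.5 FPKM. Both were lower in 6 of 6 pairs by a small factor, 0.881 to 0.975 for Ifi27 and 0.784 to 0.978 for Ifi27l2b, well below the 1.5-fold limit. Isg20, an exonuclease that degrades viral RNA, moved the other way, from 12.5 ± 0.991 to 15.7 ± 0.947 FPKM without overlap (log2FC 0.33, adjusted p = 0.000857 from limma), also below 1.5-fold. With no limit on the fold change, 4 of the 11 were lower (36.4%, against 21.7% of all genes) and 1 was higher (9.09%, against 19.3%). Besides Rtp4, the lower ones were Ifi44 (log2FC -0.34, adjusted p = 0.00118 from limma), Ifi30 (log2FC -0.30, adjusted p = 0.00037 from limma), and Ifi35 (log2FC -0.29, adjusted p = 0.014 from limma). Eif2ak2, which encodes the kinase PKR, averaged 21.6 FPKM with Ad-GFP and 21.0 FPKM with Ad-h-NR4A2. Bst2, which encodes tetherin, a membrane protein that holds budding virus on the cell, averaged 2.88 ± 1.19 FPKM with Ad-GFP and 2.08 ± 0.866 FPKM with Ad-h-NR4A2. It was lower in 5 of 6 pairs and was not called (log2FC -0.44, adjusted p = 0.337 from limma, and 0.00554 with the block, below 1.5-fold). The Mx genes, dynamin-like antiviral GTPases, were low in these cells, with Mx2 at 0.198 ± 0.0830 FPKM with Ad-GFP and 0.134 ± 0.0582 FPKM with Ad-h-NR4A2, and were not called.

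Samples 24 and 28 shared a pattern in some of the interferon response genes in both groups, and they were picked for this count after these values were seen. They were the 2 highest samples of both groups for 8 of the 50 genes (16%, against 8.89% of all genes), namely Rsad2, Ifit3, Oasl, Isg15, Gbp4, Ifi27l2b, Ifngr2, and Stat5a. They were the 2 lowest samples of both groups for 6 (12%, against 4.62% of all genes), among them Ifitm1, Ifitm2, Ifitm3, Stat5b, and Stat6. Whichever the 2 samples were, the same 2 were highest in both groups for 19 of the 50 genes (38%, against 29% of all genes). The deviations of same-numbered samples from their group means correlated with a mean of 0.766 over the 50 genes and of 0.505 over all genes tested, as a description across genes of the same 12 libraries. Differently numbered samples reached up to 0.688 over the 50 genes, above the lowest same-numbered value of 0.641, and up to 0.189 over all genes. The deviations were not scaled by gene, so that genes with a wide spread between samples weigh most. Pairing narrowed the error of some genes with a wide spread, from an SE of 0.67 to 0.14 for Oasl, from 0.48 to 0.06 for Isg15, from 0.45 to 0.07 for Ifitm3, and from 0.39 to 0.04 for Ifi27l2b.

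**Figure D4:**
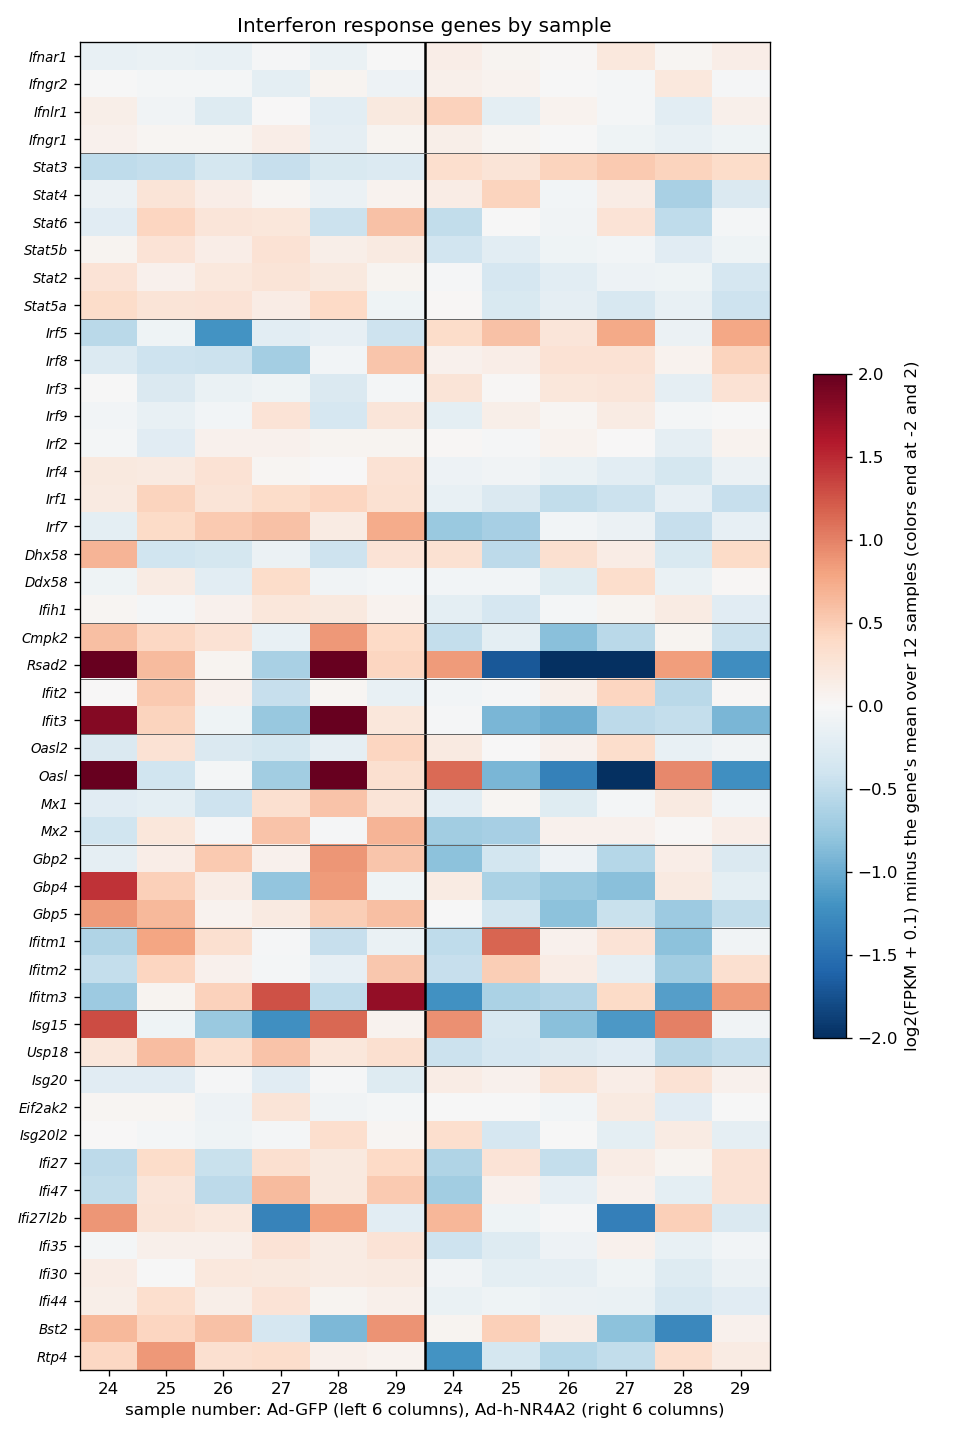
Level of 48 of the 50 tested genes (rows, ordered by role as in the plot of estimates) in each of the 12 samples (columns), as log2(FPKM + 0.1) minus the mean of the gene over all samples, with red above and blue below that mean. Columns 24 and 28 are red for Rsad2, Ifit3, Oasl, and Isg15 among Ad-GFP samples and blue for Ifitm3, and the Stat3 row changes from blue to red between the groups.

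Promoter sequences were compared because many of the genes that fell are known targets of the ISRE. RefSeq promoters of the GRCr8 assembly, 250 bases before and 50 from the start site on, were matched for 52 of the 67 genes. The ISRE core was searched as GAAANNGAAA on both strands, and it was present in 22 of the 52 promoters (42.3%), compared with 4.12% of the 27456 genes with promoters in the table. Of the genes called lower, 5 of the 8 with a promoter held it, and of the genes tested and not called 10 of 28 (35.7%) did. Neither promoter of the genes that rose, Stat3 and Irf5, held it. The sequences below show the core in capitals with 25 bases on each side, on the strand of the gene, first for the 5 genes called lower, then for 2 of the 3 that the replicate block added, and last for 2 genes with the element that were not called:
Rsad2: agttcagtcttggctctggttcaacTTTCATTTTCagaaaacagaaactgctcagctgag
Ifit3: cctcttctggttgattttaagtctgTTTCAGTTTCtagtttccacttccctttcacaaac
Gbp5: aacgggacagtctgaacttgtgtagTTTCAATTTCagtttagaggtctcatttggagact
Gbp2: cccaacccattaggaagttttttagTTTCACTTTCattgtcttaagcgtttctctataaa
Irf7: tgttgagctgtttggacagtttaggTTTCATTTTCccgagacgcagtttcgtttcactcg
Gbp4: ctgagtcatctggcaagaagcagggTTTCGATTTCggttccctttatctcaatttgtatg
Ifitm3: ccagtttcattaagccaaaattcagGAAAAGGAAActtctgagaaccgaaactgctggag
Eif2ak2: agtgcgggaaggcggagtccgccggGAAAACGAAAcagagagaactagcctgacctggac
Isg20: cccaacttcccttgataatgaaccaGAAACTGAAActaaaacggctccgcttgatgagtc

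These stretches are GRCr8 chr6:48788233-48788292 for Rsad2, chr1:241527257-241527316 for Ifit3, chr2:233910918-233910977 for Gbp5, chr2:234005671-234005730 for Gbp2, chr1:205800058-205800117 for Irf7, chr2:233978451-233978510 for Gbp4, chr1:205541768-205541827 for Ifitm3, chr6:21941113-21941172 for Eif2ak2, and chr1:142239942-142240001 for Isg20. Rsad2, Irf7, and Ifitm3 are on the minus strand. The first base of the core lies 147 bases before the start site in Rsad2, 69 in Irf7, 56 in Gbp5, 44 in Ifit3 and Ifitm3, 31 in Gbp2, and 10 in Gbp4. The element was thus present in genes that fell and in genes that did not. The GAS, searched as TTCNNNGAA on both strands, was in 10 of the 52 promoters (19.2%, against 9.39% of all genes), Irf1 among them. The NR4A monomer element (NBRE), searched as AAAGGTCA on both strands, was in 2 of the 52, those of Stat5a and Bst2 (3.85%, against 1.49% of all genes), and in none of those called in either direction. In Bst2 a GAS match overlaps an ISRE core, and in Bst2, Oas1a, Oas1b, and Oas1i a pair of ISRE cores overlap each other. Sequence matches do not show binding, and none was measured here.

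The wider pathway was followed through 124 further genes, of which 105 had a row in the data and 93 were tested. Of these, 7 fell and 7 rose (7.53% each), shares close to those of all genes, and with the replicate block 10 fell (10.8%, against 8.12% of all genes, with Uba7, Gch1, and C1s in addition) and 8 rose (8.6%, against 8.55%, with Rnf125 in addition). Their median log2FC was -0.09. The genes that fell were Lgals3bp, Irgm, Ube2l6, Igtp, Cxcl10, Socs1, and Rnf135, and those that rose were Slfn2, Cxcl11, Plscr1, Trim34, Myd88, Traf6, and Tbkbp1.

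Among sensors and adaptors, 1 of 21 genes fell (4.76%, against 7.24% of all genes) and 3 rose (14.3%, against 7.94%). Myd88, the adaptor of most Toll-like receptors, ranged from 6.16 to 7.71 FPKM (median 7.06) with Ad-GFP and from 10.2 to 15.8 FPKM (median 13.8) with Ad-h-NR4A2, without overlap (log2FC 0.93, SE 0.10, adjusted p = 8.54e-06 from limma). Tbkbp1, which binds the kinase TBK1, rose from 2.99 ± 0.835 to 6.58 ± 0.760 FPKM (log2FC 1.15, SE 0.16, adjusted p = 7.52e-05 from limma), and its groups did not overlap. Tbk1 itself, the kinase that activates IRF3, was higher in 6 of 6 pairs and stayed below 1.5-fold (log2FC 0.31, adjusted p = 0.000853 from limma). Mavs, the adaptor of the RNA sensors, was 31.9 ± 2.21 FPKM with Ad-GFP and 27.1 ± 3.50 FPKM with Ad-h-NR4A2 (log2FC -0.24, adjusted p = 0.0284 from limma), and Tmem173, which encodes STING, averaged 0.0709 FPKM with Ad-GFP and 0.0938 FPKM with Ad-h-NR4A2. Mb21d1, which encodes cGAS, was not analysed here.

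The next list held 5 genes, the kinases Jak1, Jak2, Jak3, and Tyk2 and the receptor chain Il10rb. None of the 5 was called, against 7.24% of all genes lower and 7.94% higher. With no limit on the fold change, 3 of the 5 were lower (60%, against 21.7% of all genes) and 1 was higher (20%, against 19.3%). The 3 lower were the kinases of the interferon receptors, each lower in 6 of 6 pairs, as were 29.1% of all genes. Jak1 had a log2FC of -0.34 (adjusted p = 0.00239 from limma), Jak2 of -0.34 (adjusted p = 0.00176 from limma), and Tyk2 of -0.41 (adjusted p = 0.000440 from limma). Jak1 was the most abundant, at 72.1 ± 4.86 FPKM with Ad-GFP and 57.2 ± 6.91 FPKM with Ad-h-NR4A2. Of 15 negative regulators tested, 1 fell (6.67%, against 7.24% of all genes). Socs1, which inhibits JAK kinases, ranged from 0.324 to 0.790 FPKM (median 0.601) with Ad-GFP and from 0.188 to 0.381 FPKM (median 0.325) with Ad-h-NR4A2, and was lower in 6 of 6 pairs (log2FC -0.75, SE 0.19, adjusted p = 0.00668 from limma). Socs3, induced mainly through STAT3, averaged 19.0 FPKM with Ad-GFP and 21.0 FPKM with Ad-h-NR4A2 (log2FC 0.18, SE 0.16, adjusted p = 0.420 from limma).

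Of 52 other interferon-induced genes tested, 5 fell (9.62%, against 7.24% of all genes) and 4 rose (7.69%, against 7.94%). Lgals3bp, a secreted glycoprotein, ranged from 20.3 to 22.9 FPKM (median 21.8) with Ad-GFP and from 10.0 to 12.7 FPKM (median 11.3) with Ad-h-NR4A2, with a narrow spread in both groups and no overlap (log2FC -0.95, SE 0.06, adjusted p = 5.89e-08 from limma). Cxcl11 and Cxcl10, chemokines that share the receptor CXCR3, went in opposite directions. Cxcl11 ranged from 65.5 to 188 FPKM (median 165) with Ad-GFP and from 135 to 594 FPKM (median 460) with Ad-h-NR4A2, with samples 24 and 28 the lowest in both groups, and it was higher in 6 of 6 pairs by 2.06- to 3.15-fold (log2FC 1.36, SE 0.37, adjusted p = 0.0103 from limma). Cxcl10 ranged from 2.68 to 7.39 FPKM (median 4.71) with Ad-GFP and from 2.07 to 3.48 FPKM (median 3.08) with Ad-h-NR4A2, and was lower in 6 of 6 pairs (log2FC -0.68, adjusted p = 0.0165 from limma). Slfn2, a Schlafen protein that keeps T cells quiescent, rose from 1.54 ± 0.653 to 5.80 ± 2.46 FPKM (log2FC 1.82, SE 0.33, adjusted p = 0.000641 from limma), by 3.10- to 4.47-fold in the pairs.

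Markers of other cells that such cultures could hold were read from the same samples, since fewer cells of a type and less RNA per cell cannot be told apart in bulk samples. Cardiomyocyte markers summed to 29910 to 37210 FPKM with Ad-GFP and to 26570 to 31540 FPKM with Ad-h-NR4A2, Myl2 was the most abundant, and 3 of 8 were called lower (Myh7, Ryr2, and Pln, 37.5% against 7.24% of all genes). With no limit on the fold change, 6 of the 8 were lower (75%, against 21.7% of all genes). Of 16 macrophage and leukocyte markers, 10 were listed at 0 in some samples, among them Ptprc, C1qa, Itgam, and Cd3e, and 6 were tested. The sum of all 16 was 8.01 to 18.4 FPKM with Ad-GFP and 40.1 to 53.9 FPKM with Ad-h-NR4A2, and the most abundant was Csf1r (log2FC 2.06, adjusted p = 2.15e-06 from limma, with 10.1 FPKM with Ad-GFP and 40.2 FPKM with Ad-h-NR4A2). Without Csf1r the other 15 summed to 1.38 to 7.31 FPKM with Ad-GFP and to 1.58 to 10.5 FPKM with Ad-h-NR4A2. Cd14 was called higher as well, so that 2 of the 6 tested were (33.3%, against 7.94% of all genes), whereas Cd68 averaged 0.463 and 0.482 FPKM and Lyz2 and Mrc1 were not called (log2FC -0.66 and -0.10, adjusted p = 0.475 and 0.643 from limma). The part of such cells in the interferon response genes was not tested.

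Endothelial markers summed to 10.8 to 35.0 FPKM with Ad-GFP and to 12.1 to 36.8 FPKM with Ad-h-NR4A2. Egfl7 had the highest mean over all 12 samples, whereas with Ad-GFP alone Kdr was higher (4.76 FPKM against 3.63 for Egfl7). Egfl7 was called higher, which was 1 of 10 (10%, against 7.94% of all genes), and samples 24 and 28 had the lowest sums in both groups. Fibroblast markers summed to 9.99 to 31.6 FPKM with Ad-GFP and to 6.32 to 28.2 FPKM with Ad-h-NR4A2, again with samples 24 and 28 the lowest in both groups. Vim was the most abundant, Col1a2 was listed at 0 in all samples, and Col3a1 was called lower, which was 1 of 9 tested (11.1%, against 7.24% of all genes). Col1a1 was lower in 6 of 6 pairs and was called lower with the replicate block but not without it (log2FC -0.57, adjusted p = 0.0944 from limma, and 0.00616 with the block). Smooth muscle and pericyte markers summed to 16.7 to 27.7 FPKM with Ad-GFP and to 11.2 to 23.5 FPKM with Ad-h-NR4A2. Acta2 had the highest mean over all 12 samples, whereas with Ad-GFP alone Cspg4 was higher (4.74 FPKM against 4.57 for Acta2). Cnn1 was at 0 in some samples. Myh11 and Cspg4 were called lower, which was 2 of 6 tested (33.3%, against 7.24% of all genes). The samples with the lowest endothelial and fibroblast sums were thus those with the highest Rsad2, Ifit3, Oasl, and Isg15 and the lowest Ifitm3, and the part of these cells in that pattern was not tested.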

How the data were processed

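Rat ventricular myocytes were sequenced as 12 stranded mRNA libraries, pooled in 1 paired-end run. The FPKM values used were deposited by the authors, who aligned reads to Rn5 with STAR and quantified RefSeq transcripts with Cufflinks (both without a version in the submitters' processing notes, while the paper gives one for its Cufflinks workflow). The confidence limits in the files, equal to the FPKM for 225016 of 225024 values, were not used as errors, and 8 values carry a failed status. Values above 0 but close to it were counted as above 0.

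For the 1016 gene names with several transcripts, the one with the highest mean FPKM stood for the gene. The 10950 genes above 0 in all 12 samples were fitted as log2(FPKM + 0.1) in limma 3.58.1 under R 4.3.3 (lmFit and eBayes, with a trend), with no block and two-sided p, adjusted by Benjamini-Hochberg over all of them. Single genes were also compared by exact permutation over all 924 splits into 6 and 6, which ignores the pairing by sample number. Groups that do not overlap give the smallest p of this test, as for Stat3, Irf1, and Usp18. Among genes whose groups overlapped, p by exact permutation was 0.00866 for Irf7, 0.0173 for Ifit3, 0.0455 for Rsad2, 0.0541 for Ifih1, and 0.0606 for Ifngr2. The sample number was entered as a replicate block in the alternative fit. The labels give the numbers but not their meaning, and the paper describes ARVMs of different rats. Same-numbered samples deviated together in all 6 pairs (correlation of deviations over all genes 0.347 to 0.623), and each sample correlated best with its own number. Blocked values or calls are given for the genes named here whose call they change, and beside some other results.

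Fragment numbers were recovered from low FPKM, of which 99.3% to 99.8% per sample came out whole within 0.05, for genes with 1 transcript of at least 800 nucleotides. Coordinates are Rn5 from the files for genes and GRCr8 from RefSeq for promoters, and the builds were not mixed. Named genes were all called members, the most abundant member of each role, and, of the wider pathway, the 5 called genes with the largest change and a mean of at least 1 FPKM, with 9 signaling genes set by name and Nr4a2. The other members named, and Cxcl10, were described after their values were seen. A pair of members counted in the totals is not reported here by name. The members and lists were chosen with earlier results of these data known. Python 3.11.15 with NumPy 2.4.6, pandas 2.3.3, and Matplotlib 3.10.9 was used for the rest. Alternatives were other pseudocounts, filters, scales, and fold limits, limma without trend, transcripts summed or left out, the block, and samples or pairs left out.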

Additional observations from a re-analysis of the deposited data

Results flagged for a closer look

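In 4 of 128 groups of 6 samples (64 genes named or tested, in 2 groups each), the highest or lowest sample stood apart from the other 5 by more than 0.625 of the range of the group, a distance that chance gives in about 1 of 20 groups. Ifngr1 was 11.1 FPKM in Ad-GFP sample 28 against a median of 13.1 in the others. Rtp4 was 0.423 FPKM in Ad-GFP sample 25 against a median of 0.259. Its call was lost without this sample, and also without Ad-h-NR4A2 sample 26 or 27. Isg20l2, an exonuclease that shares its name but not its induction with Isg20, was 6.41 FPKM in Ad-GFP sample 28 against 4.94. Ifi30, a lysosomal thiol reductase, was 22.7 FPKM in Ad-GFP sample 25 against 25.9. The 2 samples involved were 25 and 28.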

How the results depend on the processing

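The number of interferon response genes called depended mainly on the fold limit: 12 at 1.5-fold, 5 at 2-fold (4 lower, 1 higher), and 21 with no limit (16 lower, 5 higher). With a mean FPKM of at least 1 required, 1 gene was higher. Of the wider pathway, 14 genes were called at 1.5-fold, 5 at 2-fold (1 lower, 4 higher), and 34 with no limit (21 lower, 13 higher), and of all genes 1662, 803, and 4484. With the replicate block, 15 interferon response genes were called. Leaving out single samples gave 9 to 13 called (7 to 11 lower, 2 to 3 higher), leaving out whole pairs 8 to 11 (6 to 9 lower, with 6 without pair 25 and 6 without pair 26), and leaving out pairs with the replicate block 13 to 15 (11 to 12 lower). For the wider pathway the ranges were 13 to 16, 13 to 16, and 17 to 21, of which 6 to 9, 6 to 9, and 8 to 12 were lower (11 without pair 24 and 12 without pair 26 in the blocked fit) and 7 to 8, 7, and 8 to 9 higher. For all genes they were 1541 to 1769, 1528 to 1710, and 1729 to 1894. No call changed direction. Rsad2 lost its call in 15 of 34 settings (adjusted p of up to 0.121 in limma), Irf4 in 17 of 33 (0.144), Rtp4 in 11 of 33 (0.0994), Ifit3 in 10 of 34 (0.0803), and Gbp2 in 1 of 34. In those settings the log2 fold change was -1.33 to -1.94 for Rsad2, -0.53 to -0.68 for Rtp4, and -0.97 to -1.35 for Ifit3. For Irf4 it was -0.29 to -0.35, apart from -0.04 with a pseudocount of 1. Oasl and Ifitm3 gained a call in 7 settings each, all with the block, and Gbp4 in 8. Bst2 gained a call in 1 setting, without pair 25 in the blocked fit (log2 fold change -0.54, adjusted p = 0.00132 from limma), and Irf8 gained a call when pair 29 or Ad-GFP sample 29 was left out. The cause was not tested. Leaving out pairs was chosen after seeing the data. The median of all genes stayed within 0.1 (log2) of 0 under each scaling. Irf4, Irf5, and Rtp4 rest on few fragments (16 to 80 per group), and Irf5 kept its call in 33 of 33 settings.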
